A study of Mus musculus with 12 samples.

Results

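Histone-high cells are the cells of the mouse small intestinal epithelium in which transcripts of 5 replication-dependent histone genes were most abundant while 2 mitotic genes were not detected. They numbered 1000 of 27881 cells (3.59%). A cell was eligible when it had a value above 0 for Hist1h1b, which encodes a linker histone, and 0 for both Cdc20, the activator of the anaphase-promoting complex, and Ccnb1, which encodes mitotic cyclin B1. Hist1h1b had a value in 5082 cells, of which 1934 were removed for Cdc20 or Ccnb1 and 3148 were eligible. Eligible cells were ranked by the mean of log1p(10000 × value / cell total) over Hist1h1b, Hist1h3c, Hist1h2ab, Hist1h2ae and Hist1h2ap, and the 1000 highest were taken, which is 31.8% of the eligible cells. The cells were thus chosen by the levels of these 5 genes and by the absence of Cdc20 and Ccnb1, so the values of these genes describe the choice and are no result.

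The cells came from 8 libraries of sorted epithelium (CD45-, EpCAM+) from the small intestine of adult mice of the strain Lgr5DTR-GFP, in which a diphtheria toxin receptor and GFP are made from the Lgr5 locus. The libraries belong to a diet experiment, but the labels name no diet for any of them. Each intestine was cut into 30 pieces whose cells were tagged with MULTI-seq barcodes, lipid-anchored oligonucleotides that mark the origin of a cell, and RNA was captured in droplets at its 3′ end; the design text speaks of 2 intestines. The 2 total epithelium and 2 progenitor samples of the series (12 samples in all) were not analysed here. The deposited table pools the 8 diet libraries, and its cell barcodes end in 1 of 8 numbers that could not be matched to libraries or diets. It was treated as 1 pooled sample, so no test was made and no p-value is given, and values are set out over these 8 barcode sets. Whether the sets come from separate animals is not stated.

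Replication-dependent histone genes encode the core histones H2A, H2B, H3 and H4 and the linker histone H1 that package newly made DNA. Their transcripts accumulate during S phase and are degraded at its end. Unlike other mRNAs they mostly end in a conserved stem-loop instead of a poly(A) tail. SLBP binds that stem-loop, and NPAT, with CASP8AP2, activates the genes at histone locus bodies. In the intestine, dividing cells lie in the crypts, where Lgr5-expressing stem cells and their transit-amplifying daughters cycle before they differentiate and move onto the villus. Methods that capture poly(A) tails read such transcripts only in part, which bears on every histone level given here.

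Of the 62 genes of these families in the table, 50 lay on chromosome 13 between 21715763 and 23764406, 9 on chromosome 3, 2 on chromosome 11 and 1 on chromosome 6 (GRCm38). The 5 genes of the rule were all in the chromosome 13 cluster. Hist1h1b spanned 21779883 to 21780625 (minus strand), Hist1h2ap 21833026 to 21833507 (minus), Hist1h2ae 23570517 to 23571220 (minus), Hist1h3c 23744973 to 23745602 (minus) and Hist1h2ab 23751126 to 23751598 (plus). The 3 H2A genes share most of their coding sequence. Over 390 coding bases, Hist1h2ae and Hist1h2ap were 98.5% identical, Hist1h2ab and Hist1h2ap 97.9%, and Hist1h2ab and Hist1h2ae 97.4%. Reads of these copies may have been exchanged in the authors' counting, so the division of signal among H2A genes is uncertain.

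The stem-loop that marks these transcripts is shown because the libraries were read from the 3′ end. Its distance from the annotated end varied. The annotated transcript ran 3 bases past it in Hist1h2ap and 11 in Hist1h2ab. It ran 74 bases past it in Hist1h3c, 151 in Hist1h2ae, 770 in Hist1h4d and 1153 in Hist1h1e. Which end was read for each gene was not tested. Stem bases are in capitals and the loop is in lower case.
Hist1h3c: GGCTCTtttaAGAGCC
Hist1h2ab, Hist1h2ae and Hist1h2ap: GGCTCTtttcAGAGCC
The 16-base pattern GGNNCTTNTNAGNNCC, where N is any base, was found in transcripts of 44 of the 62 histone genes (71.0%), against 201 of 55341 genes with a transcript (0.363%). The form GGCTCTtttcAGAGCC was found in 25 of the histone genes and GGCCCTtttcAGGGCC in 7. Hist1h1b had no match to these letters in its annotated transcripts (GENCODE M21), which says only that these letters were not there.

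The promoters of the rule genes are shown because these genes define the histone-high cells. Their joint detection follows from the choice of cells and is no result. They are from RefSeq (GRCm38.p6, 250 bases before and 50 after the RefSeq start, 5′ to 3′ on the strand of the gene). Capitals mark 4 motifs searched on both strands. They are the CCAAT box, the TATA box in the form TATAAA, the octamer ATGCAAAT and the H1 box AAACACA, and no marked motif overlapped another. Hist1h2ap matched more than 1 RefSeq gene and is not shown.
Hist1h1b, chr13:21780576-21780875 (minus strand): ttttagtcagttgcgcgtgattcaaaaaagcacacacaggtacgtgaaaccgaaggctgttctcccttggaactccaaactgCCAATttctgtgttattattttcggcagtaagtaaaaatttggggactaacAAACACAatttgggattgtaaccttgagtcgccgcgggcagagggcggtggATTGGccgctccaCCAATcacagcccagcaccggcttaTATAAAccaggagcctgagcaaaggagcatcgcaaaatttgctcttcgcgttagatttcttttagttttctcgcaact
Hist1h3c, chr13:23745472-23745771 (minus strand): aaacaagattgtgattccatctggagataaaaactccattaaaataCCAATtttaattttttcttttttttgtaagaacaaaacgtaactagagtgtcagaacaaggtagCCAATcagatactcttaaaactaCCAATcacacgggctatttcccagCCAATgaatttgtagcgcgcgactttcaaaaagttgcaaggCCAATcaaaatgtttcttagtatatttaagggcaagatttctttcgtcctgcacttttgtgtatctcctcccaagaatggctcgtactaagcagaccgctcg
Hist1h2ab, chr13:23750838-23751137 (plus strand): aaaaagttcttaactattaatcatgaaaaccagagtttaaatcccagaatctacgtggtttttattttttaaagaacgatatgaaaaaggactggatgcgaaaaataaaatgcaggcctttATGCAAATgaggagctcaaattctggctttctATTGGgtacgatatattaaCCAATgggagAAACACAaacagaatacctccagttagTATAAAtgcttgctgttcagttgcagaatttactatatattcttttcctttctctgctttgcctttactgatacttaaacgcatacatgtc
Hist1h2ae, chr13:23571171-23571470 (minus strand): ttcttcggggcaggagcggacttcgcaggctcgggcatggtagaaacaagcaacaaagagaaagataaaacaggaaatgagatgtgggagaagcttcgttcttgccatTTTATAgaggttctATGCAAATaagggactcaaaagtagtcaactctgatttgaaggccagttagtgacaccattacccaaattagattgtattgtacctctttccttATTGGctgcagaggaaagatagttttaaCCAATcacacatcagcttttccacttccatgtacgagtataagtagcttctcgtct
CCAAT stood in each of the 4, and most often in Hist1h3c, with 5 copies. Of the 55 histone genes matched to 1 promoter, 83.6% held CCAAT (46 genes), against 37.4% of 32851 promoters. The H4 genes differed from the other families here, with CCAAT in 3 of 12 promoters, whereas every matched H1, H2A, H2B and H3 promoter held it. TATAAA was in 60% of histone promoters against 13.6% of all, and ATGCAAAT in 20% against 1.74%, in 6 of 15 H2A and 5 of 13 H2B promoters. AAACACA was in 4 of the 5 H1 promoters, and in 10.9% of histone promoters against 7.18% of all. In Hist1h2ae the only TATAAA match was on the opposite strand, and its window also holds the start of Hist1h2bg (23571396, plus strand). Matches on either strand were counted, also where a window holds the start of a neighbouring gene. A match describes these letters in this window and is no binding site.

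The 5 rule genes were not equally spread over the members. All 5 had a value in 465 members, 4 in 387 and 3 in 148. Scores ran from 2.93 to 1.0946, with a median of 1.60, and no gap lay at the boundary. The 10 lowest members had scores of 1.0946 to 1.098 and the 10 cells just outside 1.082 to 1.09456. Levels below are in ppm, the share of a gene in the summed values of a cell group within a barcode set, scaled to 1000000. Over the 7 sets with at least 20 cells in each group, Hist1h1b was at 587, 956 and 1274 ppm (lowest, median and highest set), Hist1h3c at 170, 277 and 359 ppm, and Hist1h2ab at 125, 159 and 181 ppm.

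Barcode sets 3 and 7 stood apart in Hist1h2ap and Hist1h2ae. Hist1h2ap was at 1778 ppm in histone-high cells of set 3 and 1457 ppm in those of set 7, while the other sets had 312 to 876 ppm. Hist1h2ae was at 1187 and 978 ppm in these sets and at 648 to 787 ppm elsewhere. The same 2 sets had the lowest Hist1h1b, at 587 and 636 ppm. The pattern was not limited to histone-high cells: Hist1h2ap was at 92.3 and 88.6 ppm in G1/S cells of sets 3 and 7 against 4.8 to 24.2 ppm in the other sets, and at 188 and 268 ppm in all other cells against 13.2 to 83.0 ppm. Its part in the results was not tested, but ranking without Hist1h2ap kept 915 of the 1000 cells, and the counts over all genes are also given without both sets.

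**Figure D1:**
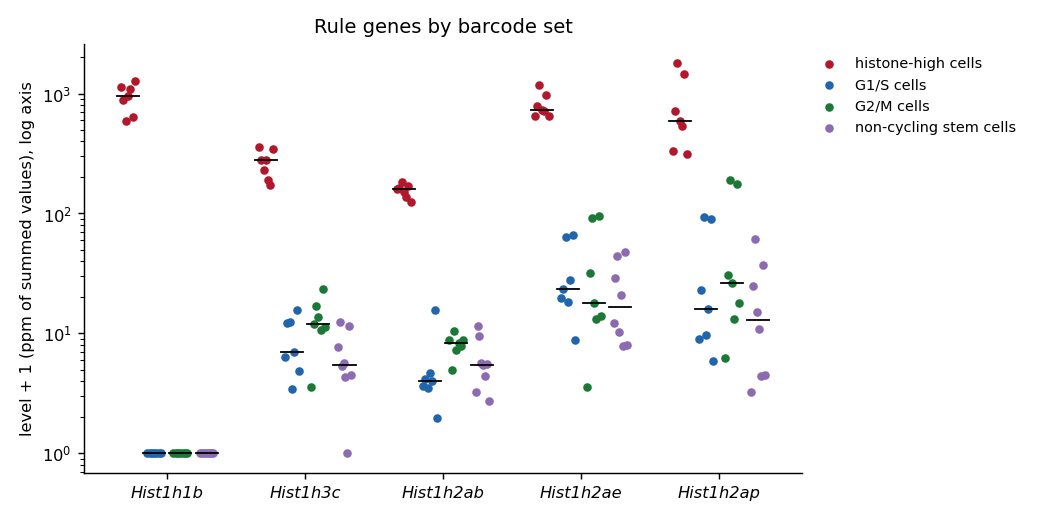
Level of the 5 rule genes in histone-high cells, G1/S cells, G2/M cells and non-cycling stem cells, 1 dot per barcode set used, with the median as a black line, in ppm plus 1 on a log axis. Hist1h2ap of histone-high cells ranges from 312 to 1778 ppm, the widest spread of the 5, and the comparison groups lie far below. Their rules put Hist1h1b at 0, and histone-high cells were picked for high values of all 5 genes.

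Histone-high cells were unevenly spread over the barcode sets. They made up 6.71% of set 7 (357 cells, exact 95% interval 6.05 to 7.42), 4.23% of set 2 (3.67 to 4.86), 3.89% of set 8 (3.24 to 4.62), 3.67% of set 5 (3.003 to 4.43) and 3.43% of set 3 (2.86 to 4.08). The lower shares were 1.71% in set 6 (1.27 to 2.24), 1.04% in set 1 (0.716 to 1.46) and 0.700% in set 4 (0.401 to 1.13, 16 cells). Sets 2, 3, 5 and 8 cannot be told apart in every pair, as neighbouring intervals overlap, and sets 1, 4 and 6 lie below them. Intervals are Clopper-Pearson and cover counting error only. What part the sort and the crypt content of each library had in these shares was not tested. Without Hist1h2ap in the score the set shares ran from 0.700% to 6.05%. Of the members, 6 carried a barcode sequence found in more than 1 set, as did 157 cells of the table.

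Histone-high cells were compared with 4 groups. G1/S cells were the 1000 cells with the highest score for the helicase genes Mcm2 to Mcm6 and no Hist1h1b, Cdc20 or Ccnb1. G2/M cells were the 756 cells with Cdc20 and Ccnb1 but no Hist1h1b. Non-cycling stem cells were the 1000 cells highest for the stem cell genes Lgr5, Olfm4, Ascl2, Smoc2 and Slc12a2 among those with no Hist1h1b, Cdc20, Ccnb1, Mki67, Top2a, Pcna or Mcm6. The last group was all other 26881 cells, which still include the eligible cells ranked below 1000. These groups are cut from scores and are not cell types. Median detected genes per cell were 2720 in histone-high cells, 2868 in G1/S cells, 2902 in G2/M cells, 1892.5 in non-cycling stem cells and 2186 in all other cells. Median mitochondrial shares were 7.18%, 7.22%, 7.19%, 11.98% and 8.24% in the same order.

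A difference is the mean over barcode sets of the log2 difference within a set, with 1 ppm added to both levels, and its SD is over the 7 sets. A gene was called higher or lower when the mean of both groups was at least 10 ppm, the difference was at least 1 log2 step and every set used had the same direction. Against G1/S cells, 201 of 9476 genes were called higher (2.12%) and 73 lower (0.77%). Against G2/M cells, 343 of 9451 genes were higher (3.63%) and 341 lower (3.61%). Against non-cycling stem cells, 1200 of 9399 genes were higher (12.8%) and 773 lower (8.22%), and against all other cells 712 of 9481 were higher (7.51%) and 934 lower (9.85%). Without sets 3 and 7 the counts were 216 and 167, 418 and 501, 1333 and 981, and 909 and 1156 in the same order. Set 7 alone mattered for the genes lower than in G1/S cells, which numbered 126 without it. Among the list counts given below for histone, replication, cell cycle, stem, absorptive and ribosome biogenesis genes against G1/S, G2/M and non-cycling stem cells, leaving out both sets turned 4 counts of 0 into 1 and moved 1 other count by over 1.5 times. Absorptive genes were lower than in G2/M cells for 16 of 21 genes without these sets, against 9 of 20 with them. Genes that chose either group were left out of these counts. Every set used had the same direction for 16.8% of genes against G1/S cells and 30.5% against G2/M cells. Where groups are said below not to overlap, the share of all genes without overlap was not computed. A gene that reaches 10 ppm only through histone-high cells had to be called higher or not at all, so counts within low lists describe the rule as well as the cells.

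Histone genes that the rule did not use were higher along with the rule genes, in every family. Their summed level over 57 genes was 2686, 3442 and 3836 ppm in histone-high cells (lowest, median and highest set), against 350, 443 and 492.9 ppm in G1/S cells, 490, 541 and 682 ppm in G2/M cells and 285, 375 and 437 ppm in non-cycling stem cells. The groups did not overlap. A histone-high cell had a value for a median of 13 of the 57 genes (quartiles 8 and 17, at most 30), against 2 in G1/S cells, 2 in G2/M cells, 1 in non-cycling stem cells and 2 in enterocyte-rich cells. Enterocyte-rich cells, 1000 cells highest for absorptive genes and without Mki67, Top2a, Hist1h1b, Cdc20 or Ccnb1, serve as background for RNA that any droplet may hold, and their sum was 314, 404 and 617 ppm. H2B genes were at 161, 204 and 325 ppm there. They include Hist1h2bc, which was higher in enterocyte-rich than in histone-high cells (below), so this sum cannot be read as background alone. The comparison groups had to lack Hist1h1b, so part of the histone difference was set by the choice of cells.

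By family, the median sums outside the rule in histone-high cells and G1/S cells were 871 and 91.6 ppm for H1 (4 genes), 666 and 64.6 ppm for H2A (13 genes), 613 and 113 ppm for H2B (16 genes), 397 and 35.9 ppm for H3 (11 genes), and 785 and 123 ppm for H4 (13 genes). Against G1/S cells, 35 of the 57 genes reached 10 ppm, 33 of them were called higher and none lower, and the median difference was 3.22 beside -0.10 over all genes considered. Histone genes that reached 10 ppm only through histone-high cells could not have been called lower, here and in the comparisons below. Hist1h1e, a linker histone gene, was at 406, 542 and 765 ppm in histone-high cells and 45.5, 63.9 and 71.8 ppm in G1/S cells (difference 3.22 ± 0.41, SD, n = 7 sets). It had a value in 91.2% of histone-high cells, against 27.2% of G1/S cells and 21.0% of enterocyte-rich cells. Hist2h2ac, an H2A gene of the chromosome 3 cluster, was at 172, 289 and 308 ppm against 10.7, 19.0 and 24 ppm (3.72 ± 0.58). Hist1h4d, an H4 gene, was at 342, 426 and 582 ppm against 23.4, 35.9 and 53.3 ppm (3.56 ± 0.42), and Hist1h3e, an H3 gene, at 106, 130 and 167 ppm against 2.91, 10.7 and 17.7 ppm (3.84 ± 1.02). In each of these the lowest set of histone-high cells was above the highest set of G1/S cells.

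The largest called differences from G1/S cells among histone genes were Hist2h2bb (5.07), Hist1h2an (4.24), Hist1h2bj (4.17) and Hist1h2bb (4.16). Hist2h2bb, Hist1h2bj and Hist1h2bb were at 0 in at least 1 set of G1/S cells, so their differences depend on the 1 ppm added. The remaining H1 genes gave 3.96 for Hist1h1a, 3.49 for Hist1h1d and 2.42 for Hist1h1c. Of the 35 genes considered, Hist1h2ac (1.48) and Hist1h2bc (-0.72) were not called. Hist1h2bc, an H2B gene, ran against the family. It was at 31.7, 37.6 and 60 ppm in histone-high cells, against 95.9, 140 and 220 ppm in G2/M cells (-1.74 ± 0.62, called lower) and 136, 193 and 316 ppm in enterocyte-rich cells.

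Against G2/M cells, 33 of 41 histone genes considered were higher and Hist1h2bc was lower, with a median of 3.32. Hist1h1a (4.34), Hist2h2ac (4.29), Hist1h2bn (4.07) and Hist1h1e (3.94) differed most among those called. Against non-cycling stem cells 33 of 35 were higher (median 3.75), and against all other cells 36 of 37 were higher and 1 lower (median 2.55). Without sets 3 and 7 the medians were 3.38 against G1/S cells and 3.59 against G2/M cells.

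**Figure D2:**
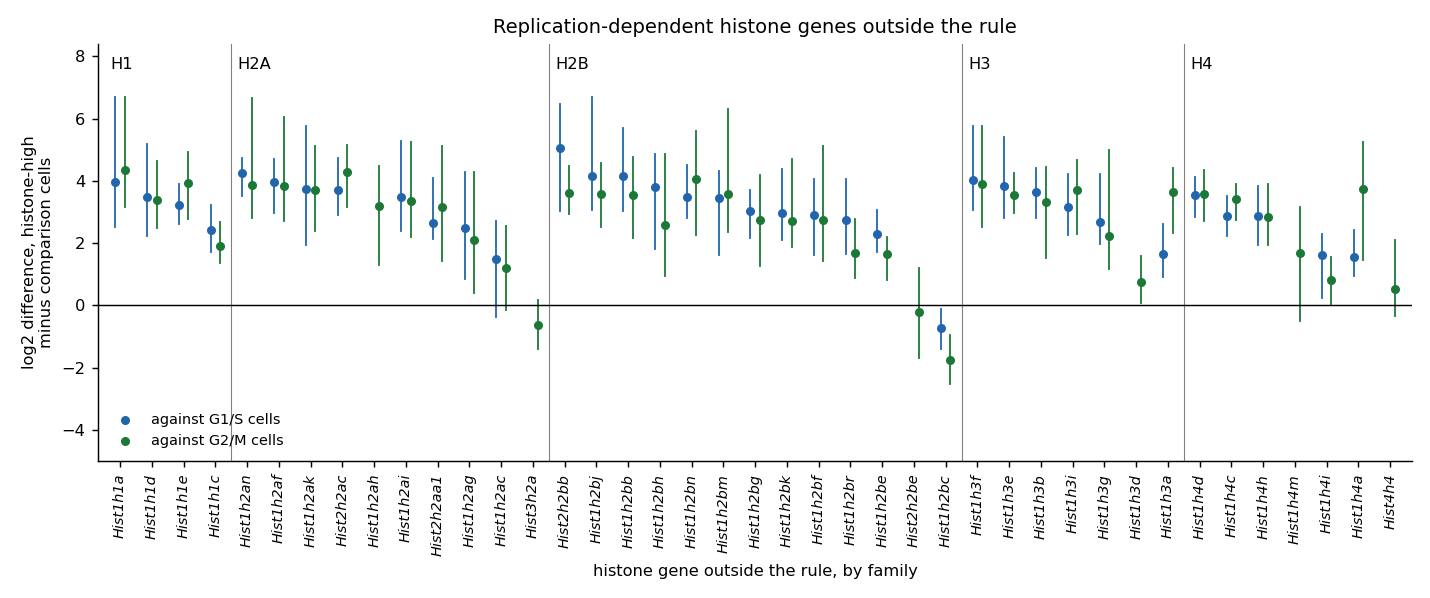
Log2 difference of each histone gene outside the rule, by family, in histone-high cells against G1/S cells and against G2/M cells; dots are means over barcode sets and lines run from the lowest to the highest set. Most genes lie between 2 and 5 log2 steps, and Hist1h2bc is the gene below 0 in both comparisons, at -0.72 and -1.74.

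Among replacement histones, which are mostly made throughout the cell cycle from polyadenylated transcripts, 3 of 9 genes were higher than in G1/S cells. H2afx, the variant phosphorylated at DNA breaks, also gives a stem-loop transcript in S phase. It was at 133, 167 and 201 ppm in histone-high cells and 19.4, 26.9 and 32.0 ppm in G1/S cells (2.60 ± 0.31). Cenpa, the H3 variant of centromeres (1.94), and H1f0, a linker histone of slowly dividing or differentiating cells (1.61), were also higher. H1f0 was at 129, 171 and 196 ppm against 41.9, 56.2 and 65.5 ppm. H2afz, a variant found at promoters, was at 1110, 1247 and 1478 ppm against 589, 637 and 841 ppm, a difference of 0.87 that did not reach the size rule although the groups did not overlap. Against G2/M cells none of 8 was called, and H2afx was at 65.6, 89.4 and 108 ppm there (0.89).

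For the machinery of histone transcripts and nucleosome assembly no gene was called against G1/S cells, and a minority was higher than in G2/M cells. None of 12 genes for histone mRNA synthesis and processing and none of 17 histone chaperones was called against G1/S cells (medians -0.04 and 0.02). Slbp, which encodes the stem-loop binding protein, was at 145, 198 and 249 ppm in histone-high cells, against 117, 148 and 165 ppm in G1/S cells (0.41) and 40.0, 53.3 and 76.1 ppm in G2/M cells (1.72 ± 0.57, called higher). Npat, the activator of histone genes, was at 37.6, 48.9 and 68.2 ppm, against 47.9, 69.0 and 77.3 ppm in G1/S cells (-0.30) and 4.83, 28.5 and 38.8 ppm in G2/M cells (1.13, called higher). Casp8ap2, its partner at histone locus bodies, was at 52.9, 65.2 and 81.3 ppm against 94.1, 119 and 136 ppm in G1/S cells. That difference was -0.82, below the size rule, with no overlap between the groups. Slbp and Npat were the 2 of 12 processing genes called higher than in G2/M cells (list median 0.17). Chaperones called higher than in G2/M cells were 6 of 17 (median 0.66). They included Chaf1b (2.12) and Chaf1a (1.71), subunits of the assembly factor CAF-1, Asf1b (1.78), which hands over H3 and H4, and Hat1 (1.75), which acetylates new H4.

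Genes that license and start replication were at similar levels in histone-high and G1/S cells, with a median difference of 0.01 over 24 genes. None was higher and 2 were lower, beside 2.12% and 0.77% of all genes considered. Ung, a uracil glycosylase, was at 14, 20.1 and 28.5 ppm in histone-high cells and 35.4, 48.0 and 53.5 ppm in G1/S cells (-1.24 ± 0.50). E2f1, a transcription factor of S-phase entry, differed by -1.04 with overlapping groups. Cdt1, the licensing factor destroyed in S phase, was at 38.9, 61.1 and 67.3 ppm against 86.0, 104 and 123 ppm (-0.87, not called), and Clspn, a checkpoint mediator at the fork, at 122, 153 and 178 ppm against 53.8, 84.7 and 94.8 ppm (0.91, not called). Mcm2 to Mcm6 chose the G1/S cells and were not counted there.

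The same list separated histone-high cells from G2/M cells, with 17 of 24 genes higher and a median of 1.63. Ccne1, which encodes the cyclin of S-phase entry, was at 31.1, 47.2 and 74.0 ppm in histone-high cells and 1.29, 2.42 and 4.0 ppm in G2/M cells (3.74 ± 0.48). Its level in G1/S cells was 22.8, 33.3 and 38.9 ppm. Dscc1, a cohesion clamp loader subunit (2.94), Cdc6, which loads the helicase (2.69), and Clspn (2.60) were next. The 5 genes Mcm2 to Mcm6 were called higher than in G2/M cells (median 1.88), with Mcm6 at 128, 168 and 209 ppm against 13.1, 36.0 and 52.0 ppm (2.29 ± 0.68).

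Fork proteins, nucleotide synthesis and replication checkpoint genes followed the same course, near the level of G1/S cells and above that of G2/M cells. Of 29 fork genes, 1 was higher than in G1/S cells, Chtf18 of an alternative clamp loader (1.41), and 24 were higher than in G2/M cells (median 1.61). Over all genes considered, 2.12% were higher than in G1/S cells and 3.63% than in G2/M cells. The same shares apply to the nucleotide synthesis and checkpoint counts below. Pcna, the sliding clamp, was at 234, 314 and 353 ppm in histone-high cells, against 181, 243 and 325 ppm in G1/S cells (0.32) and 34.8, 41.1 and 54.0 ppm in G2/M cells (2.77 ± 0.40). Lig1, which joins Okazaki fragments (3.04), Pola1, the catalytic subunit of the primase-polymerase (2.86), and Atad2 (2.70) were the other leading fork genes against G2/M cells. Of 24 nucleotide synthesis genes, 2 were higher than in G1/S cells and 13 than in G2/M cells. Rrm2, the S-phase subunit of ribonucleotide reductase, was at 70.0, 106 and 143 ppm, against 28.3, 35.9 and 50.6 ppm in G1/S cells (1.47 ± 0.25) and 9.03, 19.0 and 21.7 ppm in G2/M cells (2.62 ± 0.59). Tk1, a thymidine kinase, was the other (1.26 and 2.21).

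Of 21 checkpoint and repair genes, 2 were higher than in G1/S cells, among them Fancd2 of the Fanconi pathway (1.70). Compared with G2/M cells 16 were higher (median 1.61), among them Brca1 (3.25), its partner Bard1 (2.61) and the nuclease gene Exo1 (2.26). Brca1 was at 98.6, 132 and 150 ppm in histone-high cells and 4.83, 15.5 and 27.5 ppm in G2/M cells.

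Genes whose transcripts rise through S phase into G2 were higher in histone-high cells than in G1/S cells, for 18 of 20 genes (median 2.18). Ckap2l (3.05), the mitotic kinesin gene Kif11 (3.02), Esco2, which acetylates cohesin during replication (2.89), and the kinetochore gene Spc25 (2.72) led the list. Top2a, the topoisomerase that untangles sister DNA, was at 811, 1154 and 1396 ppm in histone-high cells, against 117, 174 and 244 ppm in G1/S cells (2.66 ± 0.41) and 321, 492 and 591 ppm in G2/M cells (1.26 ± 0.35). Mki67, the proliferation marker, was at 476, 719 and 816 ppm, against 86.7, 128 and 144 ppm in G1/S cells (2.54 ± 0.42). Mki67 differed from G2/M cells by 0.42 with overlapping groups. Ccna2, the cyclin of S phase and G2, was at 76.7, 104 and 132 ppm, against 2.99, 24 and 31.6 ppm in G1/S cells (2.65) and 133, 158 and 188 ppm in G2/M cells (-0.60, not called, no overlap). Of the 20 genes, 7 were higher than in G2/M cells, led by Esco2 (2.92), the condensin gene Ncapg2 (2.66), Brip1, a helicase that partners BRCA1 (1.95), and Cdca5, a cohesin protector (1.49).

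Although the rule required Cdc20 and Ccnb1 at 0, other mitosis genes were present. Of 34 considered, 31 were higher than in G1/S cells (median 2.58). Nusap1, a spindle microtubule protein (4.40), Hmmr (3.75), Tpx2, which activates Aurora A (3.58), and Birc5, which encodes survivin (3.28), led. Ube2c, the ubiquitin-conjugating enzyme of the anaphase-promoting complex, was at 219, 283 and 349 ppm in histone-high cells and 26.9, 32.0 and 53.5 ppm in G1/S cells (2.92 ± 0.60). Pttg1 (-0.03), Knstrn (0.79) and Nek2 (1.26) were the genes not called. The mitosis genes were split against G2/M cells, whose rule demands Cdc20 and Ccnb1 and so favours this list. There, 7 of 33 were lower and 2 higher (median -0.22). Ccnb2, the cyclin B2 gene, was at 31.7, 72.9 and 81.3 ppm in histone-high cells and 199, 236 and 299 ppm in G2/M cells (-1.88 ± 0.56). Nek2 (-2.04), Knstrn (-1.83), Arl6ip1 (-1.49), Cenpf (-1.39), Cdc25b (-1.37) and Ckap2 (-1.08) were the other lower genes. Cenpf, a kinetochore protein, was at 133, 197 and 250 ppm against 418, 491 and 617 ppm. The 2 higher genes were Ndc80, of the outer kinetochore (1.85), and Ccnf, which encodes cyclin F (1.10).

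**Figure D3:**
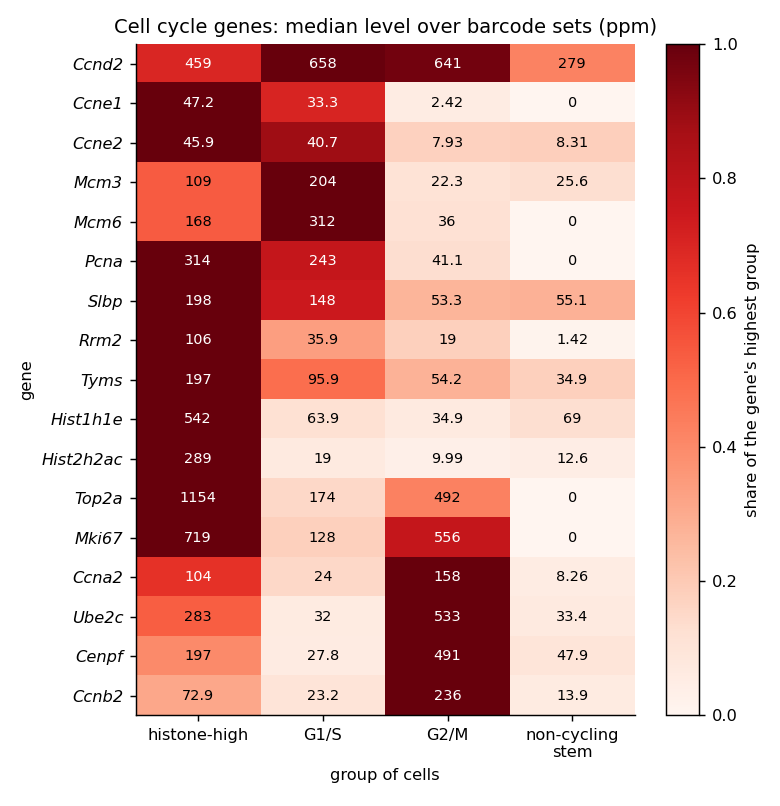
Median level over barcode sets (ppm, printed in each cell) of 17 cell cycle genes in histone-high cells, G1/S cells, G2/M cells and non-cycling stem cells; colour gives the share of the highest group for that gene. Histone-high cells keep 47.2 ppm of Ccne1 and 314 ppm of Pcna, hold the highest Top2a (1154 ppm), and have 197 ppm of Cenpf against 491 ppm in G2/M cells. Mcm6, Pcna, Top2a and Mki67 are 0 in non-cycling stem cells by their rule.

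Some regulators of the E2F network were higher than in either group. Against G1/S cells, 5 of 21 were higher, namely E2f7, E2f8, Foxm1, Fzr1 and Fbxo5. In the comparison with G2/M cells, 8 of 21 were higher (median 0.84), led by E2f7 (3.60), a repressor of E2F targets, Fbxo5, the inhibitor of the anaphase-promoting complex (3.50), E2f8 (2.34) and Mybl2 (2.33). Fbxo5 was at 60, 92.6 and 102 ppm in histone-high cells and 2.42, 6.45 and 21.2 ppm in G2/M cells. Of 14 cyclin D and inhibitor genes, Cdkn2c, which encodes p18, was higher than in G1/S cells (1.42) and, with Rbl1 (1.5), than in G2/M cells (1.12). The shares of all genes called higher were 2.12% and 3.63%. Ccnd2, a D-type cyclin gene of crypt cells, was at 403, 459 and 571 ppm against 517, 658 and 713 ppm in G1/S cells (-0.39, not called).

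**Figure D4:**
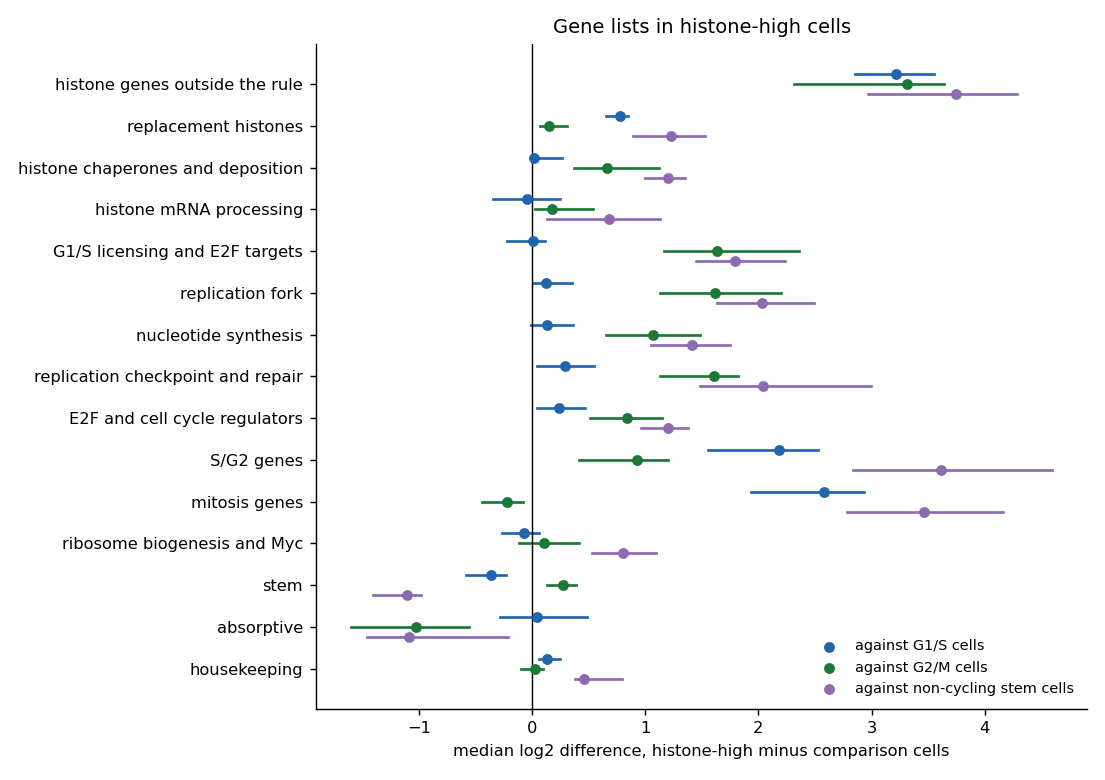
Median log2 difference of each gene list in histone-high cells against G1/S cells (blue), G2/M cells (green) and non-cycling stem cells (purple); lines run from the lowest to the highest barcode set. Histone, S/G2 and mitosis lists lie above G1/S cells (3.22, 2.18 and 2.58), while licensing and fork lists lie near 0 against G1/S cells (0.01 and 0.12) and above G2/M cells (1.63 and 1.61).

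Histone-high cells carried stem and progenitor genes, but these did not set them apart from the other cells as a whole. Stem cell genes summed to 4592, 5034 and 6011 ppm in histone-high cells and 2286, 4871 and 7557 ppm in all other cells. Enterocyte-rich cells had 314, 391 and 609 ppm. Against all other cells, 1 of 23 stem cell genes was called higher (median 0.31, set medians -0.37 to 1.09). Epcam, the sorting antigen gene, was at 1146, 1305.5 and 1572 ppm, and Ptprc, which encodes CD45, at 0 ppm in the median set. Stem cell genes were not called in any member against G1/S cells (0 of 23, median -0.36) or G2/M cells (0 of 23, median 0.27). Olfm4, a stem and progenitor marker, was at 1300, 1575 and 1694 ppm in histone-high cells, against 1945, 2165 and 2761 ppm in G1/S cells (-0.59, no overlap) and 954, 1302 and 1591 ppm in G2/M cells (0.27). Lgr5, the stem cell receptor gene, was at 174, 246 and 311 ppm, against 280, 334 and 357 ppm in G1/S cells (-0.47) and 155, 219 and 273 ppm in G2/M cells (0.17). Values for Lgr5 were found in 36.9% of histone-high cells, 46.5% of G1/S cells and 2.5% of enterocyte-rich cells, the last with median detected genes of 2419.

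Absorptive genes were lower than in G2/M cells for 9 of 20 genes (median -1.02), and none of 19 was called against G1/S cells. Krt20, a keratin of mature villus cells (-2.45), Alpi, intestinal alkaline phosphatase (-2.39), Rbp2, the retinol-binding protein (-2.29), and Sis, sucrase-isomaltase (-2.02), led. Sis was at 37.0, 72.1 and 122 ppm in histone-high cells and 184, 292 and 413 ppm in G2/M cells, where stomach markers also summed to 0 to 6704 ppm over the sets, against 0 to 179 ppm in histone-high cells. Genes of regional enterocytes followed, with 5 of 11 proximal and 4 of 9 distal genes lower. Fabp6, the ileal bile acid-binding protein, was at 9.61, 74.0 and 441 ppm against 132, 953 and 1662 ppm (-3.49 ± 1.18). How far more differentiated dividing cells enter the G2/M group was not tested.

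Markers of other cell types were low or, in the median set, no higher than in enterocyte-rich cells. T cell markers summed to 0, 0.874 and 3.41 ppm, with Cd3e, Cd8a, Trac, Gzmb, Cd7 and Trdc at 0, and 0 members held a value for at least 2 of them, which allows a share of up to 0.3%. That limit covers cells with such values, not T cells whose markers went undetected. B or plasma cell markers summed to at most 10.6 ppm, myeloid to 10.6, stromal to 16.7, endothelial to 3.11 and red blood cell markers to 34.3 ppm. In enterocyte-rich cells the highest set had 2.18 ppm for stromal and 7.12 ppm for red blood cell markers. Stomach markers reached 179 ppm in histone-high cells and 56.7 ppm there. Goblet markers summed to 538, 1471 and 3370 ppm in histone-high cells, against 700, 1527 and 3506 ppm in G1/S cells and 903, 2089 and 8956 ppm in enterocyte-rich cells. Paneth markers summed to 608, 1431 and 3371 ppm against 1545, 1966 and 2552 ppm in enterocyte-rich cells. Enteroendocrine markers summed to 97.1, 233 and 906 ppm against 366, 501 and 803 ppm. At least 2 markers had a value in 62.2% of members for goblet, 80.9% for Paneth, 43.9% for enteroendocrine and 2% for tuft cells. The Paneth defensin gene Defa24 had a value in 83.2% of histone-high cells and in 89.8% of enterocyte-rich cells, so its presence is read as background. Doublets were not called, since the values are not counts.

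Against non-cycling stem cells, histone-high cells were higher in nearly every replication list and lower in stem cell genes. The non-cycling stem cells were picked for no Mki67, Top2a, Pcna or Mcm6 and for high stem cell genes. Both directions were therefore largely set by the choice of cells, also for genes that the rule did not use. Of 28 fork genes, 26 were higher (median 2.03), as were 18 of 24 licensing genes (1.79), 15 of 24 nucleotide synthesis genes (1.42) and 12 of 17 histone chaperones (1.20). Rrm2 was at 0, 1.73 and 7.87 ppm in non-cycling stem cells, the lowest level of the 4 groups. Ribosome biogenesis genes were higher for 7 of 22 (median 0.80), with Odc1 of polyamine synthesis (1.67), Srm (1.58), Nolc1 (1.58) and Nop10 (1.37) in front; none of 22 was called against G1/S cells. H2afz was at 1110, 1247 and 1478 ppm in histone-high cells and 229, 304 and 367 ppm in non-cycling stem cells (2.05 ± 0.40).

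Of 18 stem cell genes that did not choose the non-cycling stem cells, 10 were lower (median -1.10). They were read in cells picked for other stem cell genes and are no independent result. Tnfrsf19, a Wnt target also called Troy, was at 10.2, 20.1 and 31.1 ppm in histone-high cells and 74.2, 83.3 and 121 ppm in non-cycling stem cells (-2.09 ± 0.50). Ephb3, a receptor that positions crypt cells (-1.64), Soat1 (-1.57) and Rnf43, which removes Wnt receptors (-1.56), followed. Cdk6 (-1.37) and the D-type cyclin gene Ccnd3 (-2.47) were also lower. Paneth markers were lower for 9 of 10 genes (median -2.04), with Defa24 at 212, 641 and 1491 ppm against 1591, 4259 and 7584 ppm (-2.63 ± 0.88). The non-cycling stem cells had fewer detected genes and a higher mitochondrial share (above), whose part in these differences was not tested. Without rescaling to a common total the median of all genes went from 0.05 to 0.24 in this comparison. This was a shift of 0.19, and the shift was 0.10 or less in the others.

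Against all other cells, 29 of 29 fork genes and 20 of 20 S/G2 genes were higher, 28 of 34 mitosis genes were higher, and 20 of 22 absorptive genes were lower (median -3.51).

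The histone score within the eligible cells went with the scores of the other cell cycle lists, mitosis genes included. The list scores below are means of log1p(10000 × value / cell total) over a list. In the 1000 members, the next 1000 eligible cells and the remaining 1148, the median score of histone genes outside the rule was 0.261, 0.0792 and 0.0395. For S/G2 genes it was 0.909, 0.535 and 0.206, for mitosis genes 0.466, 0.236 and 0.0991, and for G1/S licensing genes 0.360, 0.192 and 0.121. Stem scores were 0.613, 0.606 and 0.601. Median detected genes were 2720, 2261 and 2318.5, so the 2 lower ranges also had fewer detected genes.

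Within the 1000 cells, the rule score and the score of other histone genes had a Pearson correlation of 0.65 across cells, which share libraries, totals and, for H2A, near-identical sequence. The rule score went with the S/G2 score (0.37) and the mitosis score (0.35) and weakly with the G1/S licensing score (0.10). The G1/S and mitosis scores were inversely related (-0.19), although detected genes went up with both (0.41 and 0.23). These values describe cells and carry no test.

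**Figure D5:**
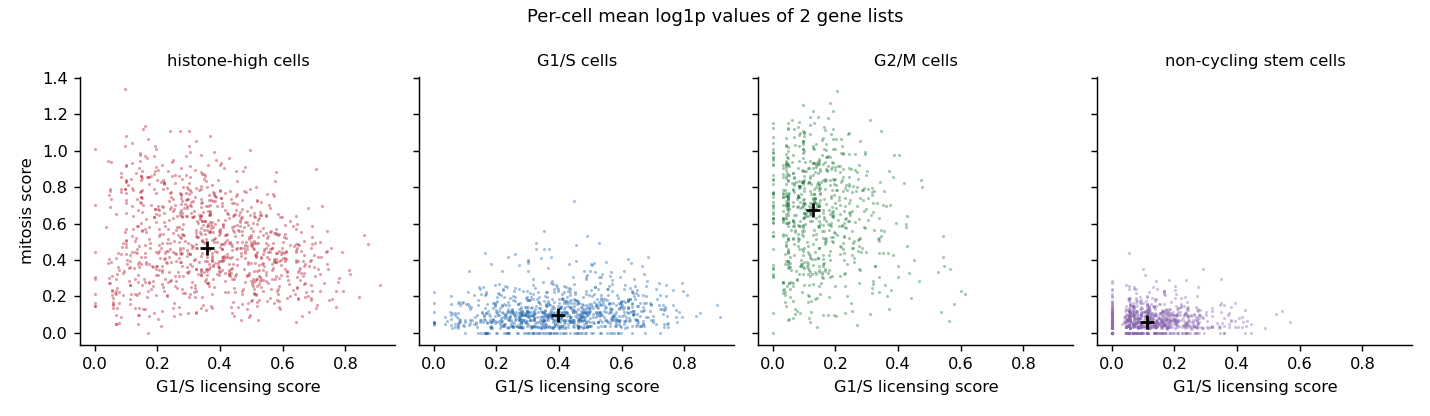
Score of G1/S licensing genes (x) and of mitosis genes (y) of each cell, in 4 panels for histone-high cells, G1/S cells, G2/M cells and non-cycling stem cells; crosses are medians. Histone-high cells have a median mitosis score of 0.466, between 0.675 in G2/M cells and 0.0991 in G1/S cells, with a G1/S score of 0.360 against 0.129 and 0.397.

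Histone-high cells were therefore divided within each barcode set into 3 equal parts by their mitosis score, a division chosen after the data were seen. The upper part held 331 cells and the lower part 336, with median mitosis scores of 0.732 and 0.272, G1/S scores of 0.296 and 0.430, rule scores of 1.80 and 1.42 and 2764 and 2530 detected genes. Over the 5 sets with enough cells, 139 of 9173 genes were higher in the upper part (1.52%) and 49 lower (0.534%). The mitosis genes made the division and are not counted. Licensing genes were lower for 7 of 24 (median -0.48), among them E2f1 (-2.10), Cdc6 (-1.89), Ccne2 (-1.87) and Cdt1 (-1.47). Mean levels of Cdc6 were 15.5 ppm in the upper part and 59.7 ppm in the lower part, and those of Ccne2, a cyclin of S-phase entry, 18.7 and 71.4 ppm. Of Mcm2 to Mcm6, Mcm2 was lower (-1.26).

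Histone genes did not follow the licensing genes in direction. Of 48 outside the rule, 7 were higher in the upper part, none was lower, and the median was 0.64. The upper part also had the higher rule score (1.80 against 1.42), which went with the score of other histone genes across members (correlation 0.65). The part of the rule score in this count was not tested, so the count is no independent result. Hist3h2a (16.1 and 4.64 ppm), Hist4h4 (16.7 and 6.28 ppm) and Hist2h4 (15.2 and 7.27 ppm) were among the 7. These genes reached the level filter only through the upper part and could not have been called lower. Hist1h4h averaged 163 ppm in the upper part and 70.4 ppm in the lower part (1.18), and Hist1h2af 73.0 and 34.5 ppm (1.11). H2afx averaged 229 and 99.6 ppm (1.22), H1f0 242 and 114 ppm (1.08) and Cenpa 148 and 25.9 ppm (2.83). S/G2 genes were higher for 5 of 20, among them Ccna2 (1.18) and Cdca8, a subunit of the chromosomal passenger complex (1.25). Casp8ap2 was lower, at 35.3 and 95.3 ppm (-1.72), as was Chaf1b (-1.70). Among cell cycle regulators, Foxm1, the activator of G2 genes, was higher (1.08) and Mybl2 lower (-1.06), and the inhibitor gene Cdkn1b was higher, at 71.9 and 29.4 ppm (1.32).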

How the data were processed

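Droplet 3′ single-cell libraries of sorted epithelium (8 diet samples) were measured. The submitters' processing notes name Cell Ranger and the build mm10. Versions, cell filters and any merging step were not given in the sources used here. A deposited table of 20090 genes and 27881 cells was treated as a score, a number with no fixed scale. Its values are whole numbers, yet 25.3% of cells hold more values of 2 than of 1 and totals per cell lie between 2764 and 9739 (median 5503), unlike raw counts. The depth behind each value is therefore unknown, no counting interval is given for expression, cells were not thinned, and no doublet caller was run.

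Cells were grouped by the number that ends their barcode. Values were summed per group and barcode set and scaled to ppm, and within-set log2 differences (1 ppm added) were averaged over sets with at least 20 cells of both groups. This replaced any test: with 1 pooled sample no p-value can be had. The procedure was checked on simulated data. Named genes are the rule genes, Cdc20 and Ccnb1, up to 4 called genes per list and comparison, members that complete a pair or complex, and, outside the lists, up to 8 called genes at each end. Some genes that fit this rule are not reported here. The members, lists and comparison groups were chosen with earlier results of these data known. Alternatives changed the number of cells, gate, pooling, pseudocount, filter, rescaling, detected genes, shared barcodes and barcode sets. A score without Hist1h2ap, leaving out sets 3 and 7 together, the division by mitosis score and the enterocyte-rich background were chosen after seeing the data. Gene positions and transcripts are from GENCODE (GRCm38) and promoters from RefSeq (GRCm38.p6). Python 3.11.15, numpy 2.4.6, scipy 1.17.1 and matplotlib 3.10.9 were used.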

Additional observations from a re-analysis of the deposited data

Results flagged for a closer look

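Histone-high cells of barcode set 7 had a median of 2546 detected genes, lower than in the 7 other sets, which had 2714 to 2828. The median over all 8 sets was 2729.75. Its gap to the nearest set was 0.596 of the whole range over the 8 sets. The value was 1 of 20 looked at in this way, and the 95% critical value behind it picks out about 1 in 20 groups by chance. Set 7 also had the lowest median scores of its histone-high cells for G1/S licensing genes (0.280), S/G2 genes (0.734), mitosis genes (0.389) and histone genes outside the rule (0.191), and it held 35.7% of them. Its part in these values was not tested.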

How the results depend on the processing

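With 500 histone-high cells, 121 genes were lower than in G1/S cells, the histone median against them was 3.58, and 469 genes were higher than in all other cells. With 2000 histone-high cells the median share of a set was 6.51%, and 9, 177 and 464 genes were lower than in G1/S, G2/M and non-cycling stem cells. In the same setting Clec2h (0.18), Apoa1 (0.62) and Gda (0.41) changed sign against G2/M cells, as did Anpep (0.022) and the absorptive median (0.10) against non-cycling stem cells. Without the gate the histone median against G1/S cells was 3.60. With sums pooled over sets 26 genes were lower than in G1/S cells.

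With 10 ppm added, 6 genes were lower than in G1/S cells, 223 higher and 120 lower than in G2/M cells, 441 lower than in non-cycling stem cells and 429 higher than in all other cells. The histone medians were then 2.09 (G1/S) and 1.69 (G2/M). Without a filter they were 2.72 and 2.71, and 123 genes were lower than in G1/S cells. A filter at 50 ppm, which tests fewer genes, left 87 higher and 5 lower than in G1/S cells, 127 and 84 than in G2/M cells, 580 and 333 than in non-cycling stem cells, and 313 and 388 than in all other cells. Without rescaling, 502 genes were lower than in non-cycling stem cells. In the middle range of detected genes, 122 genes were lower than in G1/S cells, 759 higher than in non-cycling stem cells and 470 higher than in all other cells, and Fabp2 was at 0.81 against non-cycling stem cells. With 500 comparison cells the histone median against G1/S cells was 3.50 and Apoa1 was at 0.48 against G2/M cells. Leaving out sets 3 and 7 gave 167 genes lower than in G1/S cells. The cause of these changes was not tested.

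Leaving out each barcode set in turn gave 193 to 211 genes higher and 50 to 126 lower than in G1/S cells, 322 to 385 and 299 to 411 than in G2/M cells, 1124 to 1343 and 743 to 899 than in non-cycling stem cells, and 569 to 850 and 862 to 1067 than in all other cells. The histone medians were 3.10 to 3.36 (G1/S) and 3.16 to 3.49 (G2/M). Of 19409 alternative values, 18610 stayed within the spread of the sets or 1.5 times a count, 792 moved further and 7 reversed, each named above. Some of these values could not move, so the tally overstates how stable the results are. The filters do not change the difference of a gene. Set 4 had too few cells to be used, so leaving it out changed no difference. Taking 500 comparison cells left the group of all other cells as it was. The 274 genes called against G1/S cells kept their sign with 500 and with 2000 histone-high cells, although 194 and 155 of the 201 higher genes and 29 and 8 of the 73 lower genes were still called. No paired analysis was possible because the results come from no test. Differences were taken within barcode sets, which could not be matched to samples. Unknown depth limits every low level, and genes at 0 in a set have differences that depend on the value added.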

Other observations

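Outside the lists, the gene furthest above G1/S cells in histone-high cells was Kif14, a kinesin of cytokinesis. It was at 32.9, 41.1 and 58.1 ppm in histone-high cells and 0, 1.85 and 9.41 ppm in G1/S cells (lowest, median and highest barcode set, difference 4.17 ± 1.47, SD, n = 7 sets). Prr11 (3.84), Depdc1a (3.48), Mxd3 (3.40), Espl1, which encodes separase (3.34), Depdc1b (3.26), Ska1, a kinetochore protein (2.97), and Iqgap3 (2.97) followed. Mxd3 is a MYC-network repressor, and its relative Mxd4 was among the genes furthest below, at 1.31, 6.79 and 18.7 ppm against 15.1, 18.5 and 27.1 ppm (-1.44 ± 1.05). The other genes furthest below G1/S cells were Fbxl20, Pik3ap1, Fastkd1, Gm29684, Tbc1d2, Gm17590 and 2010009K17Rik, with differences of -1.89 to -1.43. Of these, Fbxl20, Pik3ap1, Fastkd1, Tbc1d2 and 2010009K17Rik were at 0 in at least 1 set of histone-high cells. Kif14, Prr11, Depdc1a, Mxd3 and Espl1 were at 0 in at least 1 set of G1/S cells. Such differences depend on the 1 ppm added. With 10 ppm added, 163 of the 201 higher and 6 of the 73 lower genes were still called.

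Among the 8 genes furthest above G2/M cells, Neil3, a glycosylase that resolves damage at forks, was at 147, 212 and 244 ppm in histone-high cells and 14.5, 23.2 and 32.0 ppm in G2/M cells (3.05 ± 0.47). Tcf19 (3.85), Wdr76 (2.82), Kntc1, a kinetochore checkpoint gene (2.65), Slfn9 (2.64), Ccp110, a centriole gene (2.52), Donson, a replisome protein (2.48), and Fam111a, a protease that acts at forks (2.47), were the others. The inhibitor genes Cdkn2b (-2.96) and Cdkn3 (-2.55) were lower, Cdkn3 at 13.7, 24.5 and 29.5 ppm against 113, 118 and 177 ppm, as were Slc51a (-2.92) and Slc51b (-2.54), which encode the basolateral bile acid exporter. Against non-cycling stem cells, Pclaf, a partner of PCNA, was at 473, 602 and 710 ppm in histone-high cells and 10.2, 21.0 and 43.9 ppm in the stem cells (4.67 ± 0.85). Myo9a, a motor protein gene, was at 68.7, 89.7 and 154 ppm against 614, 1448 and 2062 ppm (-3.57 ± 0.82).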
